A study of Mus musculus with 12 samples.

Results

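Tumor cells cross a basement membrane by cutting it, and the genes described here encode a set of enzymes that do so together with their receptor and inhibitors. The set is a list of named genes with no threshold on a measured value, and holds 10 of the 24906 genes listed in the tables: the secreted matrix metalloproteinases Mmp10 (stromelysin-2) and Mmp13 (collagenase-3), the membrane-anchored metalloproteinases Mmp14 (MT1-MMP) and Mmp15 (MT2-MMP), the plasminogen activators Plau (urokinase) and Plat (tissue-type activator), the urokinase receptor Plaur, and the metalloproteinase inhibitors Timp1, Timp2 and Timp3. All 10 were found in both tables.

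Plasminogen activators convert plasminogen to plasmin, a broad protease that degrades fibrin and matrix glycoproteins and can activate secreted metalloproteinases. Urokinase works at the cell surface when it is bound to its receptor, and inhibitors of the serpin family inactivate the activators. Metalloproteinases are made as inactive precursors, and the TIMP proteins block their active sites. TIMP2 also takes part in the activation of MMP2 by MT1-MMP.

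RNA-Seq was carried out on mouse tumor organoids, small epithelial structures grown from small intestine tumors, in 12 libraries. Every library, controls included, came from Smad4KO;BRAFV600E/+ cells in which the alleles had been recombined by the intestinal epithelial Villin-Cre driver, and every library was labelled as carrying pINDUCER-SMAD4, a construct that lets doxycycline (dox) switch on SMAD4. Organoids in basement membrane extract (BME, a 3D gel of matrix proteins) gave 3 untreated libraries of lines 682, 700 and 889, and 2 libraries of lines 700 and 889 treated with 4 µg/mL dox for 48 h. Cells on tissue culture plastic gave 3 untreated and 3 dox libraries of lines 560, 700 and 889. A further BME library of line 682 was labelled as dox treated and mock, a word the labels do not explain, and it was kept with the controls, so BME compared 2 dox with 4 control libraries. The mice were several weeks old when tamoxifen activated the Cre, and tumor organoids were derived months later. A line number marks an untreated and a treated library of the same line, and lines 700 and 889 occur in both environments.

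Smad4, the check of the construct, was higher in FPKM (fragments per kilobase of transcript scaled to library size) in each dox pair. In BME line 700 had 6.53 without and 17.2 with dox, and line 889 had 6.23 and 27.3. On plastic line 560 had 1.54 and 73.6, line 700 had 2.99 and 18.1, and line 889 had 4.76 and 48.9. The mock library had 10.3 against 8.88 in its untreated partner. Depth rebuilt from the tables was 14.5 to 16.3 M reads in BME and 17.0 to 21.1 M reads on plastic. All 8 epithelial markers were detected. Their sum was 4230 to 5230 FPKM in untreated, 4880 FPKM in mock and 7900 to 9850 FPKM in dox libraries in BME, and 13300 to 14500 FPKM in untreated and 11900 to 17400 FPKM in dox libraries on plastic. By contrast, 10 fibroblast and smooth muscle markers summed to 1.13 to 7.48 FPKM in BME and 0.289 to 0.656 on plastic, where Lum and Thy1 were at 0. The highest sum was that of the BME dox library of line 889, with 4.13 FPKM of Col1a1 against 0.75 FPKM in its untreated partner. The part of these markers in the results was not tested. The 5 endothelial markers summed to at most 3.65 FPKM. The BME and plastic tables were normalized separately, so levels were compared between environments only by rank within a library.

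Mmp10 and Mmp13 lie 219018 bases apart on chromosome 9, in the metalloproteinase cluster, and Mmp13 is carried by chr9:7272514-7283333 and Mmp10 by chr9:7502352-7510238, both on the plus strand of NCBIM37. Plaur lies at chr7:25247519-25260892 on the plus strand. On the same build, Mmp14 lies at chr14:55050441-55060095, Plau at chr14:21655884-21662610, Mmp15 at chr8:97876168-97898193, Plat at chr8:23868216-23893319 and Timp1 at chrX:20447292-20451861, all on the plus strand. Timp2 lies at chr11:118162383-118217054 on the minus strand and Timp3 at chr10:85763117-85812251 on the plus strand. Timp1 overlaps Syn1 on the opposite strand without shared exonic bases. The 250 bases before the RefSeq transcription start (GRCm38.p6) of Mmp10, Mmp13 and Plaur are shown because these were the members whose window held the AP-1 motif TGANTCA, which reads the same on both strands and is the classical element of metalloproteinase promoters. Promoter entries were matched for 8 of the 10 members, all but Plau and Plat. Capitals mark the AP-1 match and, in Mmp10, the SMAD motif CAGAC, which was searched on both strands. The windows are Mmp10 at chr9:7502092-7502341, Mmp13 at chr9:7272264-7272513 and Plaur at chr7:24462233-24462482, each on the plus strand.
Mmp10: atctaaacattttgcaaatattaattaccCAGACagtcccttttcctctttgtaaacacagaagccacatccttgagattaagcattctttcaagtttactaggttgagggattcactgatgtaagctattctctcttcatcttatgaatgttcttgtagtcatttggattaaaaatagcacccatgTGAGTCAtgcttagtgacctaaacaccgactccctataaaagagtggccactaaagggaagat
Mmp13: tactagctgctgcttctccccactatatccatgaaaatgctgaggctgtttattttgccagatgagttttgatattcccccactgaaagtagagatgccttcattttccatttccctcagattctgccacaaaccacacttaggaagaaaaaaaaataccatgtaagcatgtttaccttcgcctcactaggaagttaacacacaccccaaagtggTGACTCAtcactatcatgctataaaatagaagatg
Plaur: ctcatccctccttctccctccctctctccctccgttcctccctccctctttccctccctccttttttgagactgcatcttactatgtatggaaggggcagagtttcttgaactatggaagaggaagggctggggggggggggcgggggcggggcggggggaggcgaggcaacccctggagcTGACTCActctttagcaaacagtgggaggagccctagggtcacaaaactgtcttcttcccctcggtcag

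The AP-1 match lay 63 to 57 bases before the start in Mmp10, 35 to 29 bases before it in Mmp13 and 69 to 63 bases before it in Plaur. It was present in 3 of the 8 member windows and in 2217 of all 32851 windows (6.75%). The SMAD motif lay 221 to 217 bases before the start of Mmp10 and was present in 1 of 8 member windows, against 42.2% of all windows. These matches describe letters in a window, and no binding was measured here.

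**Figure D1:**
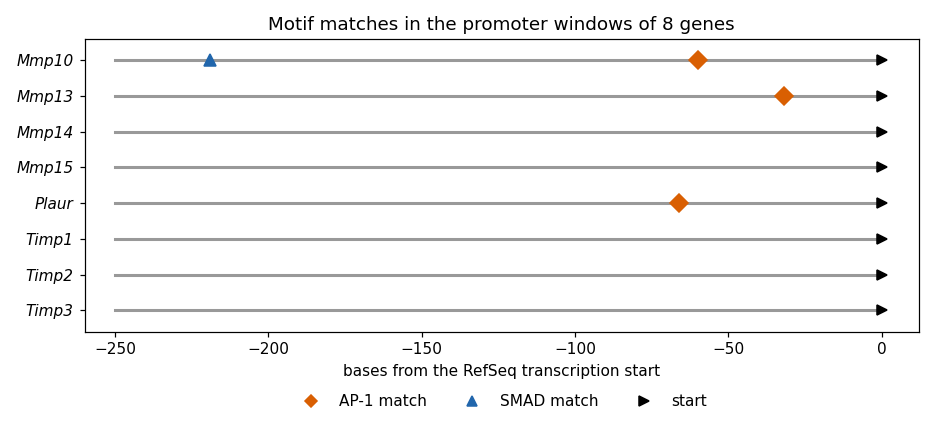
Position of motif matches in the 250 bases before the RefSeq start of 8 genes, with the distance from the start in bases on the x axis and a triangle at the start. AP-1 matches occur in Mmp10, Mmp13 and Plaur, and a SMAD match occurs in Mmp10.

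In BME the same 4 genes were the highest members in every library, while on plastic the set of the highest members varied between libraries. In untreated BME, Timp2 (32.9 to 114 FPKM), Mmp15 (55.2 to 59.7 FPKM), Plaur (28.7 to 50.8 FPKM) and Mmp14 (30.7 to 44.7 FPKM) were the highest, and their ranges overlapped except for that of Mmp15, which lay above those of Plaur and Mmp14. Plat (6.05 to 10.3 FPKM), Plau (1.87 to 13.4 FPKM) and Timp1 (1.18 to 7.48 FPKM) followed with overlapping ranges. Timp3 reached 0.301 FPKM and Mmp10 and Mmp13 were listed at 0 in all 3 libraries. On untreated plastic, Timp2 (262 to 586 FPKM) was above Plaur (209 to 381 FPKM) in all 3 libraries, although the ranges overlapped. Mmp14, Mmp15, Plau and Plat lay together between 28.4 and 98.1 FPKM, Timp1 lay just below at 21.7 to 23.5 FPKM, and Mmp13, Timp3 and Mmp10 were at most 0.544 FPKM. With dox on plastic, Plaur stood above Timp2 in all 3 libraries.

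**Figure D2:**
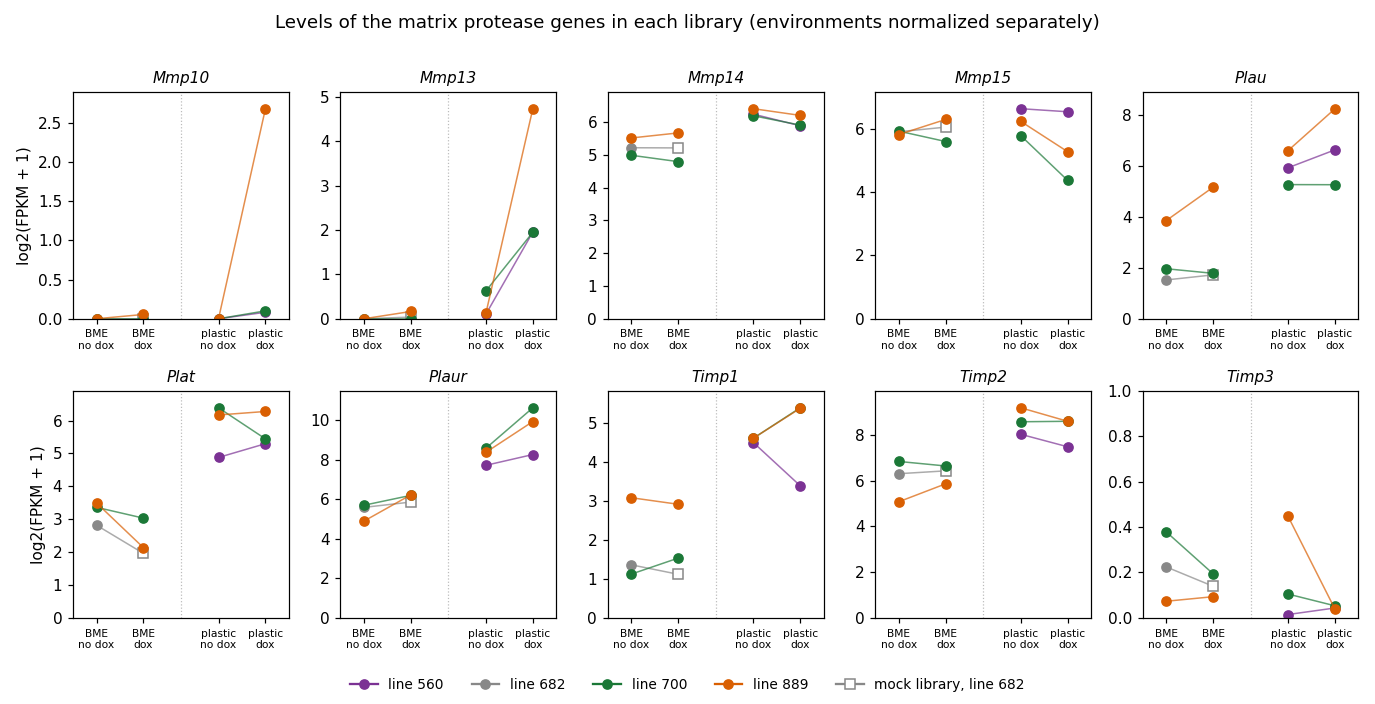
Level of each of the 10 genes as log2(FPKM + 1) in the 12 libraries, with each line joining the untreated and treated library of 1 organoid line and the open square marking the mock library. The plastic dox libraries hold the only levels of Mmp10 and Mmp13 above 1 FPKM, and BME and plastic levels are on separate normalizations.

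The first question was whether SMAD4 expression changed these genes in each environment. Changes are given as dox minus untreated on the log2(FPKM + 1) scale, which understates the change of genes with low values, and were tested with limma over all genes with a mean of at least 0.5 FPKM. The threshold for a call was an adjusted p-value under 0.05 together with a change over 1 in size. No member passed in either environment, among 7 members tested in BME and 9 on plastic. The induced gene Smad4 missed the call as well. On plastic Smad4 rose by 3.42 with an adjusted p of 0.162, while its BME rise of 1.36 had 0.959. A gene left uncalled by this test may therefore still have changed. Few genes passed at all: 3 of 12996 (0.0231%) in BME and 4 of 12333 (0.0324%) on plastic, which became 0 and 7 with the organoid line as a block and 1 and 11 with limma-voom on the rebuilt reads, again with 0 members. With the p-value left unadjusted, the call was made for 0.954% of genes and 0 members in BME, and for 3.64% of genes and 1 member, Mmp13, on plastic, where the block by line added Plaur. Mmp13 reached the minimum level for testing only through its dox libraries.

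Among the secreted metalloproteinases, Mmp13, which cleaves fibrillar collagens, had the largest change of any member. On plastic it went from 0.0741 to 2.87 FPKM in line 560, from 0.544 to 2.86 in line 700, and line 889 went from 0.0911 to 25.6. These levels corresponded to about 4, 28 and 5 reads before dox and 156, 127 and 1068 reads after it. Every dox library was above every untreated library, and line 889 stood far above the other two. The change was 1.85, 1.32 and 4.61 in the 3 pairs and 2.59 (SE 0.76, n = 3 against 3) in the limma fit, with an unadjusted p of 0.0121 and an adjusted p of 0.485. It was 4.46 with a pseudocount of 0.1, 5.12 by limma-voom on the rebuilt reads and 1.67 without the dox library of line 889, and no alternative passed the adjusted test (adjusted p = 0.237 to 0.835). In BME it was listed at 0 in every untreated library, at 0 with dox in line 700, and at 0.120 FPKM (about 5 reads) with dox in line 889, while the mock library had 0.0262 FPKM (about 1 read).

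Mmp10, which cleaves a wide range of matrix proteins, was listed at 0 in all untreated libraries of both environments. With dox on plastic it reached 0.0592 FPKM in line 560 and 0.0723 FPKM in line 700, about 2 reads each, and 5.41 FPKM in line 889, about 140 reads. The level in line 889 was at least 61.7-fold higher than a floor of 3 reads in its untreated library, whereas the other dox libraries were under that floor. Its mean change was 0.95 (SE 0.70), with an adjusted p of 0.790, and it was 2.41 with a pseudocount of 0.1 (adjusted p = 0.752) and 4.41 by limma-voom on the rebuilt reads (adjusted p = 0.642). In BME the highest value was 0.0386 FPKM, about 1 read, with dox in line 889. Both genes entered the plastic test through their dox libraries, so that they are higher there carries no weight as a count of members.

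The membrane-anchored metalloproteinases were well expressed in every library. Mmp14, a pericellular collagenase, was 30.7 and 44.7 FPKM in untreated lines 700 and 889 in BME and 26.7 and 49.9 FPKM with dox, and the mock pair of line 682 had 36.2 and 36.1 FPKM. On plastic it went from 74.6 to 58.2 FPKM in line 560, from 72.2 to 59.0 FPKM in line 700, and line 889 went from 83.9 to 72.7 FPKM. It was lower with dox in each plastic pair, with changes of -0.35, -0.29 and -0.20, but the dox library of line 889 was above the untreated library of line 700 and the arms overlapped. The change of -0.28 (SE 0.18) on plastic had an adjusted p of 0.755, and that of 0.00 (SE 0.27) in BME an adjusted p of 0.999.

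On plastic Mmp15, a close relative of Mmp14, went from 98.1 to 91.7 FPKM in line 560, from 54.0 to 19.6 FPKM in line 700, and line 889 went from 74.1 to 37.7 FPKM. The changes of -0.10, -1.42 and -0.96 had the same sign and very unequal sizes, and the dox library of line 560 was above 2 of the 3 untreated libraries. The mean change was -0.82 (SE 0.55, adjusted p = 0.762), and it was -0.31 without the dox library of line 700 and -1.39 without that of line 560. In BME the signs were opposite, with 59.7 to 47.3 FPKM in line 700 and 55.2 to 77.3 FPKM in line 889, beside 58.8 to 65.2 FPKM in the mock pair, and the change was 0.02 (SE 0.21, adjusted p = 0.993). The ratio of Mmp15 to Mmp14 was 1.24 to 1.94 in the 6 BME libraries. On plastic it was 0.749 to 1.31 in the untreated libraries and 0.333 to 1.58 in the dox libraries, and these ranges overlapped.

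Plaur, which concentrates urokinase at the cell surface, was the only member that was higher in all 5 dox pairs. In BME it went from 50.8 to 72.2 FPKM in line 700, and line 889 had 28.7 FPKM without and 73.6 FPKM with dox. The mock pair had 47.0 and 56.9 FPKM. Both dox libraries were above all 4 control libraries. The change was 0.70 (SE 0.28), with an unadjusted p of 0.0432 and an adjusted p of 0.959, and it was under the size needed for a call. On plastic it went from 209 to 305 FPKM in line 560, from 381 to 1577 FPKM in line 700, and line 889 went from 330 to 974 FPKM. Untreated libraries averaged 307 ± 88.3 FPKM and dox libraries 952 ± 636 FPKM (SD, n = 3 each), and the dox library of line 560 lay inside the untreated range. The change of 1.38 (SE 0.61) had an unadjusted p of 0.0600 and an adjusted p of 0.617, which with the line as a block were 0.00988 and 0.240. Plaur held rank 47 of 24906 in its highest library.

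Plau encodes the protease that this receptor binds. In BME line 700 had 2.89 FPKM without and 2.44 FPKM with dox, line 889 had 13.4 and 34.6 FPKM, and the mock pair had 1.87 and 2.29 FPKM. On plastic it went from 59.5 to 97.5 FPKM in line 560, from 37.3 to 37.2 FPKM in line 700, and line 889 went from 95.6 to 300.0 FPKM. Line 889 was the highest line in both environments, with and without dox, and line 700 changed by -0.18 in BME and by 0.00 on plastic. The arms overlapped, and the changes of 1.21 (SE 1.05) in BME and 0.78 (SE 0.75) on plastic had adjusted p-values of 0.959 and 0.844. The BME value was -0.48 without the dox library of line 889 and 2.89 without that of line 700, and it was 0.56 with the line as a block and 0.44 with the mock library in the dox arm. Receptor transcript exceeded protease transcript in every library, by 2.13 to 29.7-fold in BME and 3.13 to 42.4-fold on plastic.

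Plat, the activator best known for fibrinolysis, was the only member lower in both BME dox pairs, from 9.29 to 7.19 FPKM in line 700, and line 889 went from 10.3 to 3.39 FPKM. The mock pair, which had little more Smad4, also went down, from 6.05 to 2.89 FPKM, and the mock library was the lowest of all 6. On plastic the pairs differed in sign, with 28.4 to 38.4 FPKM in line 560, 82.9 to 42.6 FPKM in line 700 and 71.1 to 76.6 FPKM in line 889. The changes of -0.33 (SE 0.49) and -0.14 (SE 0.46) had adjusted p-values of 0.965 and 0.968, and that in BME was 0.12 without the dox library of line 889, -0.85 with the line as a block and -0.85 with the mock library in the dox arm.

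The inhibitors moved in no common direction. In BME Timp1, a secreted inhibitor of most metalloproteinases, went from 1.18 to 1.90 FPKM in line 700, and line 889 went from 7.48 to 6.55 FPKM, beside 1.57 and 1.17 FPKM in the mock pair. On plastic it went from 21.7 to 9.49 FPKM in line 560, while line 700 had 23.45 and 41.1 FPKM and line 889 had 23.45 and 40.7 FPKM. Lines 700 and 889 were nearly equal before and after dox, and line 560 went the other way. Fitted over all libraries, the Timp1 change was 0.55 (SE 0.68) in BME and 0.15 (SE 0.54) on plastic, with adjusted p-values of 0.963 and 0.972. The fitted BME value lay above both same-line changes, 0.41 in line 700 and -0.17 in line 889. With the line as a block it was 0.12. Both libraries of the mock pair were in the control arm, and their line had none in the dox arm. Timp2, which both inhibits metalloproteinases and partners MT1-MMP, went from 114 to 99.5 FPKM and from 32.9 to 57.4 FPKM in lines 700 and 889 in BME, and from 262 to 179, from 383 to 389 and from 586 to 389 FPKM in lines 560, 700 and 889 on plastic. Its mock pair had 78.4 and 85.6 FPKM, and the changes of 0.09 (SE 0.51) in BME and -0.37 (SE 0.43) on plastic had adjusted p-values of 0.993 and 0.872, and the plastic value was -9e-04 without the dox library of line 560. Timp3, which is held in the matrix, never exceeded 0.363 FPKM (about 36 reads) and was tested in neither environment. It shares 1733 exonic bases with Syn3 on the opposite strand, and the strandedness of the libraries was not given in the sources used here.

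**Figure D3:**
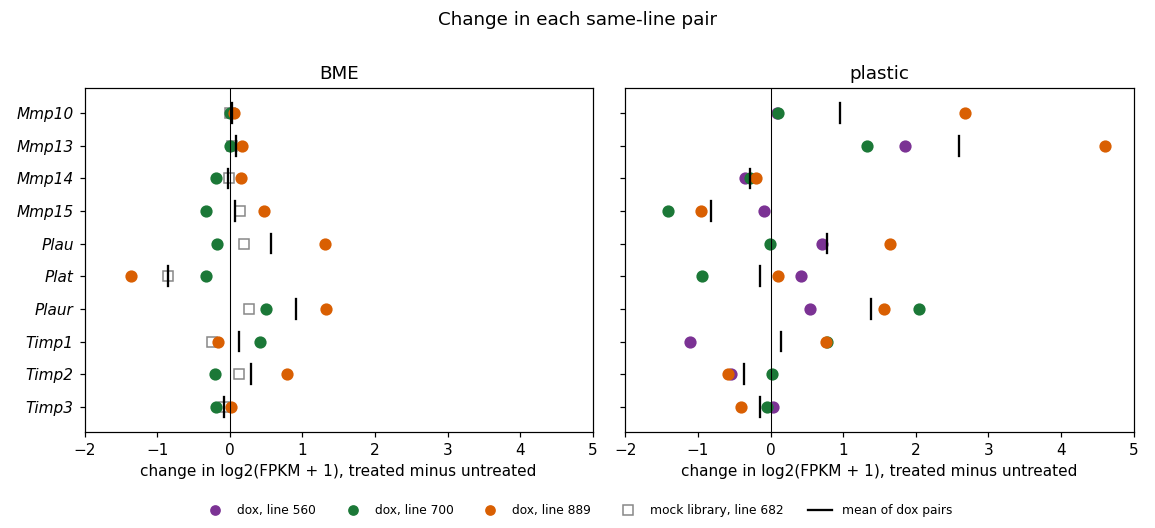
Change in log2(FPKM + 1), treated minus untreated, of each gene in each same-line pair in BME (left) and on plastic (right), with a vertical bar at the mean of the dox pairs and an open square for the mock pair. Plaur is right of 0 in all pairs, and the widest spread is that of Mmp13 on plastic, from 1.32 to 4.61.

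Counted over pairs, 1 of 7 tested members was higher (Plaur) and 1 lower (Plat) in both BME dox pairs, where 27.2% and 29.5% of all genes tested were. On plastic, among the 7 members tested in both environments, Plaur was higher and Mmp14 and Mmp15 were lower in all 3 pairs, as were 18.6% and 18.7% of genes. Mmp10 and Mmp13 were higher in all 3 pairs but are left out of this count, since they entered the test through their dox libraries. In lines 560 and 700 Mmp10 had about 2 reads with dox. Arms did not overlap for 1 member in BME, Plaur, higher with dox, as for 6.33% of genes. On plastic no member tested in both environments had a dox arm wholly above its untreated arm, as 7.87% of genes did. The dox arms of Mmp10 and Mmp13 were above, which for the same reason is not counted. No member had a dox arm wholly below its control arm, as 5.83% of genes did in BME and 7.26% on plastic. The median change over the members in single pairs ran from -0.19 (BME line 700) to 0.77 (plastic line 889), while the median of all genes lay within 0.01 of 0. The plastic medians include Mmp10 and Mmp13.

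Several of these changes were largest in line 889 on plastic, and the marker lists differed there too. The 8 immune markers summed to 4.02 to 39.3 FPKM in the plastic dox libraries and 3.69 to 16.1 FPKM in the untreated ones, and Cd68 made up 38.7 FPKM of the sum in the dox library of line 889. The macrophage marker Adgre1 was at 0 in all 12 libraries, and Ptprc, the pan-leukocyte marker, did not exceed 0.096 FPKM. Without that library, the plastic change of Mmp13 was 1.67 and that of Plau 0.01, and Mmp10 no longer reached the minimum level for testing. In bulk RNA, fewer cells of a type and less RNA per cell cannot be told apart.

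Whether the response to dox differed between environments was tested as an interaction for the 7 members tested in both. The differences, plastic minus BME, ran from -0.84 (SE 0.65) for Mmp15 to 0.68 (SE 0.74) for Plaur, and every member had an adjusted p of 1.00. Without the plastic dox library of line 560 these extremes were -1.42 and 1.36, and Mmp15 and Plaur then passed with the p-value unadjusted, as did 227 of 11927 genes. By limma 0 of 11977 genes passed (0%), and with an unadjusted p 159 genes (1.33%) and 0 members did. Limma-voom on the rebuilt reads also gave 0 genes. Standard errors of these differences were 0.33 to 1.40.

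The other question was where these genes stood in the order of all genes in each environment. In untreated libraries both activators, the urokinase receptor, Timp1 and Mmp14 stood higher in the gene order on plastic. These were 5 of the 7 members tested, whose within-library rank was higher on plastic than in BME, when ranks were turned into normal scores (1 unit is 1 SD of the gene order) and tested with limma at an adjusted p under 0.05. A change of rank was called for 6.28% of all genes, with a higher rank for 3.92%, and a lower one for 2.35% of genes and 0 members. The largest shift was that of Plau, from the 56.0 to 76.2 percentile in BME to the 90.6 to 96.4 percentile on plastic (1.90, SE 0.34, adjusted p = 0.0318). Timp1 went from the 53.7 to 68.0 percentile to the 84.9 to 86.0 percentile (1.63, SE 0.28, adjusted p = 0.0289), and Plat from between 65.4 and 72.3 in BME to between 87.8 and 95.7 on plastic (1.43, SE 0.20, adjusted p = 0.0211). Their ranges did not overlap between environments.

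Plaur went from the 86.9 to 92.3 percentile in untreated BME to the 98.1 to 99.1 percentile on plastic (1.12, SE 0.14, adjusted p = 0.0157). Mmp14 moved less, from between 87.3 and 91.6 in BME to between 94.8 and 95.9 on plastic (0.50, SE 0.10, adjusted p = 0.0373). Timp2 (0.91, SE 0.22, adjusted p = 0.0573) and Mmp15 (0.16, SE 0.09, adjusted p = 0.320) did not pass. With the line as a block, 3 members kept the call (Plau, Plaur and Plat), while 943 of all genes (7.87%) were called. Leaving out untreated line 682 in BME, or line 700 or line 889 on plastic, left 0 members called, with 0.167%, 0.852% and 0% of all genes. Leaving out line 700 in BME left 1, Plaur, with 1.79% of all genes. The shifts of the 5 members called in the main fit stayed above 0 in every case.

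In the dox libraries 0 of 7 members passed (1 of 11977 genes, 0.00835%), although 6 of 7 had an unadjusted p under 0.05, as did 18.2% of genes. With the line as a block, again on lines 700 and 889 alone, 5 members passed (Plau, Plaur, Plat, Timp1 and Timp2), as did 955 of all genes (7.97%). The shifts were 1.69 (SE 0.20) for Plat, 1.58 (SE 0.59) for Plau, 1.42 (SE 0.37) for Timp1, 1.16 (SE 0.19) for Plaur, 0.73 (SE 0.13) for Timp2, 0.41 (SE 0.15) for Mmp14 and -0.20 (SE 0.31) for Mmp15. That of Plau was 0.67 without the dox library of line 700 in BME and 2.48 without that of line 889. Environment and table, each normalized on its own, cannot be told apart with or without the block, and without it neither can lines 682 and 560.

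**Figure D4:**
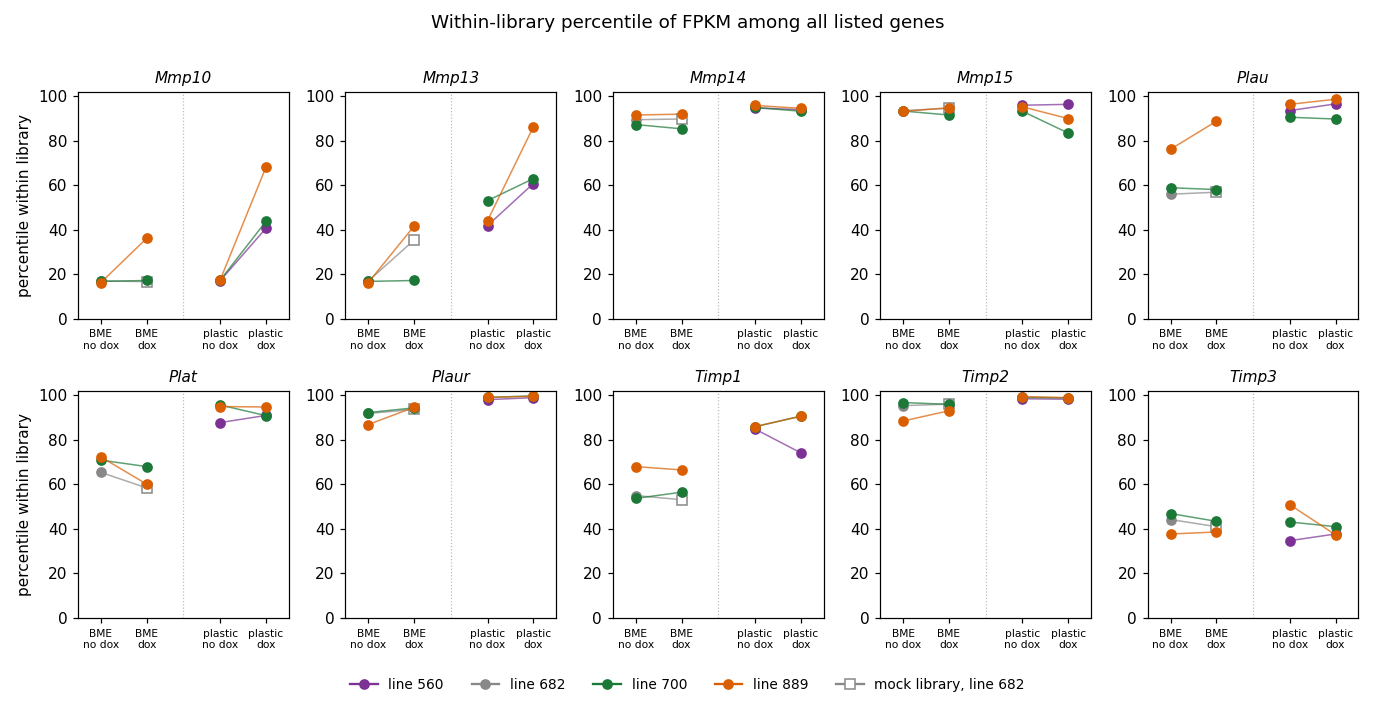
Percentile of each gene among all 24906 listed genes within each library (y axis, higher is more abundant), by environment and treatment, with 1 line per organoid line and an open square for the mock library. Genes listed at 0 share a percentile near 17, and Plau, Plat, Plaur and Timp1 sit higher on plastic than in BME in every library.

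Around these 10 genes, 82 other protease and inhibitor genes were examined in 10 lists, of which 46 were tested in BME and 48 on plastic. None passed the adjusted test in either environment, whereas 1 (Anxa2, a plasminogen-binding protein, higher) in BME and 7 on plastic passed with the p-value unadjusted, 4 higher and 3 lower, where 0.954% and 3.64% of all genes did. The same-line changes of Anxa2 in BME, 0.75 in line 700 and 0.44 in line 889, were under the size needed for a call. Line 682, in the control arm only, had 271 and 277 FPKM of it, against 530 and 619 FPKM in untreated lines 700 and 889. The median change over the genes tested in these lists was 0.10 in BME and 0.06 on plastic, beside -0.01 and 0.01 over all genes. Serpinb2 (PAI-2), an inhibitor of urokinase, was lower with dox in each plastic pair, from 43.0 to 8.90, from 34.1 to 12.7 and from 136 to 31.2 FPKM in lines 560, 700 and 889 (-1.87, SE 0.64, adjusted p = 0.547).

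Of the 6 other metalloproteinases tested on plastic, Mmp9, a gelatinase, was listed at 0 in the 3 untreated libraries and at 2.0, 0.0747 and 6.77 FPKM with dox in lines 560, 700 and 889. Its change was 1.55 (SE 0.67, adjusted p = 0.613), and it too entered the test only through its dox libraries. Mmp24, a brain-enriched membrane-anchored member, was lower in each plastic pair, with changes of -1.03, -0.72 and -1.60 (adjusted p = 0.415). Mmp7 (matrilysin), made by intestinal epithelium, was lower in both BME pairs, from 181 to 20.1 FPKM and from 691 to 221 FPKM, but also in the mock pair, from 57.3 to 10.02 FPKM, and its plastic pairs differed in sign.

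Among the remaining groups, the aspartic protease Ctse had the widest change, from 32.8 to 90.9 and from 0.543 to 16.4 FPKM in lines 700 and 889 in BME and by 3.82, 1.49 and 4.51 in lines 560, 700 and 889 on plastic (adjusted p = 0.432). The serine protease Prss23 was higher in all 5 dox pairs, by 1.98 and 0.88 in BME and by 1.52, 2.61 and 1.53 on plastic (adjusted p = 0.299 on plastic). Ctsb, a lysosomal cysteine protease, was higher by 0.27, 1.16 and 1.92 on plastic, and Adam9, a membrane sheddase, by 1.99, 1.12 and 0.17. The mock pair, with little more Smad4, also went up, from 14.1 to 25.7 FPKM for Ctse, 11.9 to 18.9 FPKM for Prss23 and 25.7 to 72.3 FPKM for Adam9. The convertase Pcsk6 was lower in each plastic pair, with changes of -0.73, -1.39 and -1.93, and higher in both BME pairs, by 0.29 and 0.16 (interaction -1.89, SE 0.56, adjusted p = 1.00).

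**Figure D5:**
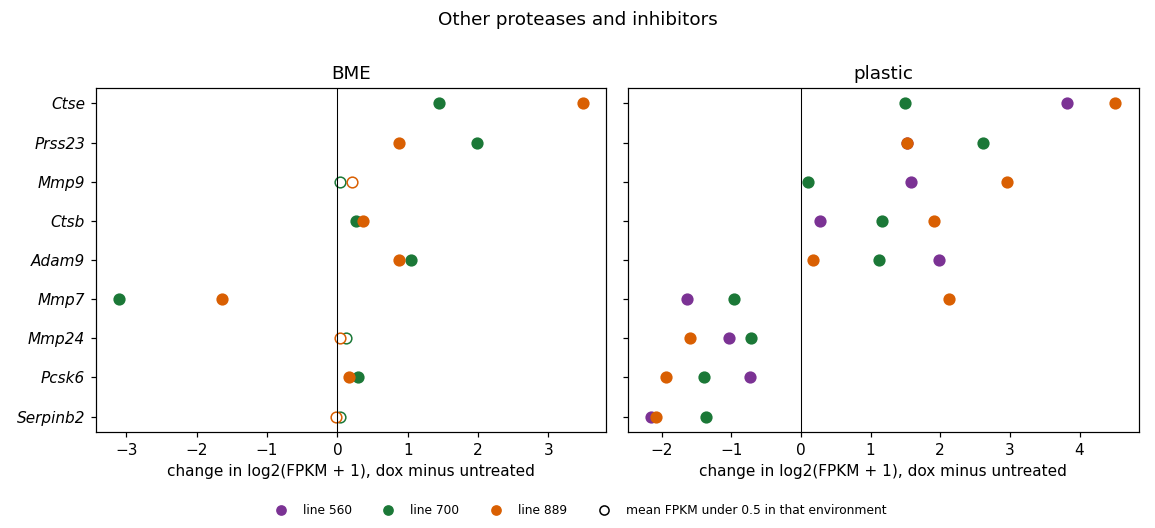
Change in log2(FPKM + 1), dox minus untreated, of 9 other protease and inhibitor genes in each line in BME (left) and on plastic (right), with open circles for genes under a mean of 0.5 FPKM there. Ctse and Prss23 are right of 0 and Serpinb2, Pcsk6 and Mmp24 left of 0 in all 3 plastic pairs.

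Across the 12 libraries, after centring within each environment, the gene with the profile most like that of Plau was the chemokine gene Ccl2 (Pearson r = 0.971), and for Plaur it was Mgrn1 (r = 0.947), for Timp1 Ube2n (r = 0.976), for Mmp14 Cenpt (r = 0.959), for Mmp15 Fads2 (r = 0.925), for Plat Gm12657 (r = 0.918) and for Timp2 Ankrd46 (r = 0.894). These are the highest of 11977 genes compared with each member, and the libraries share lines, so the values are a description. Between members the value furthest from 0 was that of Mmp15 with Plaur (r = -0.83).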

How the data were processed

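Total RNA was sequenced, and the authors quantified reads with kallisto and DESeq2 (processing notes: mm9). They deposited FPKM per gene, 1 table for each environment and normalized separately. Each of 2 further deposited tables gave a mean normalized count per gene (signal) beside the authors' own fold changes and p-values, which were not used. Approximate reads were rebuilt by setting FPKM against that mean. Of values under 60 reads, 67.7 to 85.2% per library lay within 0.05 of a whole number, so read counts are approximate and cover counting error only.

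Levels were compared on log2(FPKM + 1) with limma 3.58.1 (R 4.3.3, trend, two-sided, Benjamini-Hochberg over all genes whose mean FPKM reached 0.5), without a block. The study's model formula was not given in the sources used here. Same-line libraries deviated together (r = 0.25 to 0.66), so the organoid line was the block of an alternative. For the rank shifts that alternative used only lines 700 and 889, which occur in both environments. The limma script was tested on simulated data. Members, gene lists and tests were chosen with earlier results of these data known. Named genes were the 10 members and listed genes with the same sign in every dox pair of an environment and a mean change of at least 1. Where no label separates cultures, p-values measure the spread between these libraries. Alternatives covered the pseudocount (0.1), the filter, scaling, block, limma-voom, the place of the mock library, rank scores and each library left out. Positions came from NCBIM37 and promoters from RefSeq (GRCm38.p6). One further result is not reported here.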

Additional observations from a re-analysis of the deposited data

Results flagged for a closer look

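Among the 4 BME control libraries, 3 members had a library that stood apart by Dixon's ratio, the gap to the nearest library over the whole range. The ratio was 0.911 for Plau and 0.937 for Timp1, in both cases for untreated line 889, which had 13.4 FPKM of Plau against 1.87 to 2.89 FPKM in the other 3 and 7.48 FPKM of Timp1 against 1.17 to 1.57 FPKM. For Mmp13 it was 1.0, since the mock library held about 1 read and the others 0. Chance alone gives about 1 such mark in 20 groups, and 9 members were examined, but this rate holds for independent libraries and 2 of the 4 here, the mock and its untreated control, are of line 682. Line 889 was also the highest line for Plau on plastic. The part of the line in these values was not tested.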

How the results depend on the processing

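No member passed the adjusted test of the dox change, or of its difference between environments, under any alternative, but the number of genes called was unstable. In BME the 3 genes became 1 with a pseudocount of 0.1, 0 with the line as a block, 1 with limma-voom, 0 with the mock library in the dox arm and 0 to 37 with each library left out. On plastic the 4 genes became 10 with a pseudocount of 0.1, 0 without a filter on low values, 7 with the block, 11 with limma-voom and 0 to 55 with each library left out. The difference between environments gave 5 genes without a filter. For the rank shift of untreated libraries, the block gave 3 members and 943 genes, all genes above 0 gave 6 of 10 members (Mmp13 added) and 637 genes, and leaving out each library gave 0 to 6 members and 0 to 2195 genes. For the dox libraries, percentile ranks gave 1 member and 10 genes, all genes above 0 gave 2 genes, the block gave 5 members and 955 genes, and leaving out each library gave 0 genes. The pairing of libraries by line changed no other call at the adjusted threshold, and at the unadjusted one it added Plaur for the plastic dox change and Mmp15 for the rank shift of dox libraries.

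With the mock library in the dox arm the BME change of Timp1 was -1e-04. The difference between environments turned positive for Plau and Timp1 with the block (0.21 and 0.025), with the mock library in the dox arm (0.34 and 0.15) and with lines 700 and 889 alone (0.25 and 0.65). With each library left out, the BME change ran from -0.44 to 0.44 for Mmp14, -0.33 to 0.37 for Mmp15, -0.48 to 2.89 for Plau, -0.78 to 0.12 for Plat, -0.14 to 1.24 for Timp1 and -0.30 to 0.48 for Timp2, and the plastic change from -0.61 to 0.15 for Plat, -0.19 to 0.81 for Timp1, -0.66 to -9e-04 for Timp2, -1.39 to -0.31 for Mmp15, 0.87 to 2.06 for Plaur and 0.014 to 1.5 for Plau. The difference between environments ran from -0.72 to 0.16 for Mmp14, -1.42 to -0.33 for Mmp15, 0.17 to 1.36 for Plaur, -2.11 to 1.26 for Plau, -0.28 to 0.63 for Plat and -1.10 to 0.28 for Timp1, and the rank shift of Mmp15 in dox libraries from -0.48 to 0.038. The cause of these shifts was not tested. Of all values recomputed, 482 kept their direction and side of the threshold, 43 counts or values moved, 31 changed sign, 21 were weaker and 7 stronger. Low read numbers limit Mmp10, Mmp13 and Timp3 in BME, where a difference was not detectable at this depth.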

Other observations

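Of the 42 other protease and inhibitor genes tested in both environments, 3 stood higher in the gene order of untreated plastic than of untreated BME libraries at an adjusted p under 0.05 and 0 stood lower, where 3.92% of all genes stood higher and 2.35% lower. They were chosen after their values were seen. Prss22, a serine protease, shifted by 1.22 (SE 0.19, adjusted p = 0.0228), Adam8, a metalloprotease disintegrin, by 1.04 (SE 0.17, adjusted p = 0.0246), and S100a10, which binds plasminogen activator and plasminogen at the cell surface together with annexin A2, by 0.42 (SE 0.09, adjusted p = 0.0456). The median shift over the 42 genes was -0.03, beside 1.12 over the 7 members and 0.00 over all genes. The epithelial brush border protease Mep1b had a shift of -1.54 (SE 0.43, adjusted p = 0.0827). With each of the 6 untreated libraries left out, the number of all genes called ran from 0 to 2195.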
